A study of Mus musculus with 36 samples.

Results

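Axin2, Lef1, T, Cdx1 and Sp5 are genes known as direct targets of Wnt signalling, and their surroundings were examined for factor binding and for a promoter mark in mouse embryonic stem cells moved from serum medium to 2i. The loci were 5 windows of the build mm9: Axin2 chr11:108730000-108870000, Lef1 chr3:130750000-130980000, T chr17:8570000-8690000, Cdx1 chr18:61130000-61250000 and Sp5 chr2:70260000-70370000, 720 kb in all. Every peak inside a window in any of 14 deposited ChIP-seq peak lists was taken, whatever its strength. This gave 182 of the 292990 peaks on chromosomes 1 to 19, X and Y. Merged wherever they overlapped by at least 1 bp, the peaks formed 43 regions, of 84988 over all chromosomes. The regions are numbered along each window, with 8 at Axin2, 16 at Lef1, 5 at T, 6 at Cdx1 and 8 at Sp5.

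The cells were KH2, an established mouse embryonic stem cell line, and in 1 list DNMT triple knockout cells (TKO), which lack the DNA methyltransferases. Serum cells grew with 15% FBS and LIF, and the labels describe maintenance on a layer of irradiated CF1 mouse embryonic fibroblasts. The 2i cells had spent 24 h or 3 passages in 2i medium with LIF. Nanog was mapped with one antibody lot (lot 1) in serum, at 24 h and at 3 passages, and with another (lot 2) in a GFP-high serum sample, and at 24 h in KH2 and in TKO cells. Sox2 and the histone mark H3K4me3 were mapped in the 3 cultures serum, 24 h and 3 passages, and Oct4 (Pou5f1) in the first 2 of them. What the GFP reports is not stated in the labels, nor whether the TKO line is 1 clone, and TKO cells in serum were not analysed here. Each condition has 1 peak list and no value per replicate, and in 6 of the 14 lists the labels hold 1 sample. Differences between conditions were therefore described without a test. The serum lists came from cells kept on feeders per the labels' protocol, and the labels do not say whether the 2i cells had feeders.

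In Wnt signalling the kinase GSK3 marks beta-catenin for destruction. When GSK3 is blocked, beta-catenin builds up and acts on genes carrying TCF/LEF proteins. The 2i medium holds an inhibitor of GSK3 and an inhibitor of MEK and no serum, so the part of GSK3 cannot be told apart from that of the MEK inhibitor or of the loss of serum. Axin2 is a scaffold of the complex that destroys beta-catenin and acts as negative feedback on the pathway. Lef1 is one of the DNA-binding partners of beta-catenin. T (Brachyury), Cdx1 and Sp5 encode transcription factors that act in the primitive streak and early mesoderm. Oct4, Sox2 and Nanog are the core transcription factors of pluripotency, and H3K4me3 is found mainly at promoters. Neither beta-catenin nor TCF/LEF binding was measured, and RNA was not analysed here, so the label of Wnt targets could not be checked against these data.

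The promoters of the member genes are shown for the letters that TCF/LEF proteins are known to prefer. RefSeq sequences of the build GRCm38.p6, a later build than that of the peaks, were searched from 250 bases before to 50 bases after each start site for CTTTGAA and its relatives CTTTGAT or CTTTGTA or CTTTGTT on both strands. The 4 forms differ in their last letters and so do not overlap at one position. Printed below are the 250 bases before the start, 5′ to 3′ on the plus strand, with matches in capitals. Sp5 and T hold matches, and Axin2, which holds none, is shown for contrast. The promoter of Cdx1 was not searched.
Sp5, chr2:70474673-70474922: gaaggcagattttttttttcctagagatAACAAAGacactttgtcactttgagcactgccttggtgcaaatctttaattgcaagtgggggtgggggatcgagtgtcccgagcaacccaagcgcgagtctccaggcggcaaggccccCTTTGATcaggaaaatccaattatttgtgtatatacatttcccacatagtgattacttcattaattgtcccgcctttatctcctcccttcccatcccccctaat
T, chr17:8434173-8434422: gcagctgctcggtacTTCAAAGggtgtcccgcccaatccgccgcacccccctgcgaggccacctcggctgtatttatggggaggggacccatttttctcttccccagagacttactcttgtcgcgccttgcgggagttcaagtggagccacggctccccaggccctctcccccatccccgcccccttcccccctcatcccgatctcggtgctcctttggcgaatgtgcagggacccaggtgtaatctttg
Axin2, chr11:108920099-108920348: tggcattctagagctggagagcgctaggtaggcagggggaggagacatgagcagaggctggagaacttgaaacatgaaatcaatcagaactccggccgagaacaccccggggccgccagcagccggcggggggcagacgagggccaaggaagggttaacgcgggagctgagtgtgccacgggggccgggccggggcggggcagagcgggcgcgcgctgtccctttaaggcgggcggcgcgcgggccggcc
Sp5 had 2 matches, CTTTGTT on the minus strand and CTTTGAT on the plus strand, whose first bases lie at -222 and -104 from the start site. T had 1 match, CTTTGAA on the minus strand at -235. Of 4 Lef1 start sites in the table, 3 had no match and the fourth had 1, CTTTGTA on the minus strand at -147. At least 1 match was present in 16.9% of all 32851 promoters of this length and at least 2 in 1.94%. The octamer ATGCAAA, the letters preferred by Oct4, was not found on either strand of these promoters, and 4.63% of all promoters hold it. A match describes letters only. Since the builds differ, whether these stretches lie under the peaks was not determined.

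Nanog, to which 6 of the 14 lists belong, was called in 36 of the 43 regions (83.7%, against 79.0% of the 84988 regions over all chromosomes). Sox2 was called in 17 (39.5%, against 23.6%), Oct4 in 9 (20.9%, against 10.3%) and H3K4me3 in 13 (30.2%, against 26.7%). A factor peak and H3K4me3 were both present in 8 regions (18.6%, against 9.17%). Nanog was also called in 16 of the 17 Sox2 regions (94.1%, against 87.1%) and in 8 of the 9 Oct4 regions (88.9%, against 91.4%), so these overlaps are near those of the whole lists. Of the Nanog regions, 4 were called in all 6 Nanog lists (11.1%, against 13.8%) and 8 in a single one (22.2%, against 41.0%). The lists contributed from 3 peaks (Oct4 in serum) to 35 peaks (Nanog at 24 h, lot 1). At the mean density of each list over the chromosomes, the windows would hold 1.37 and 11.4 peaks of these lists. Every list had more peaks in the windows than this density gives, the closest being H3K4me3 at 3 passages with 6 against 5.17.

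**Figure D1:**
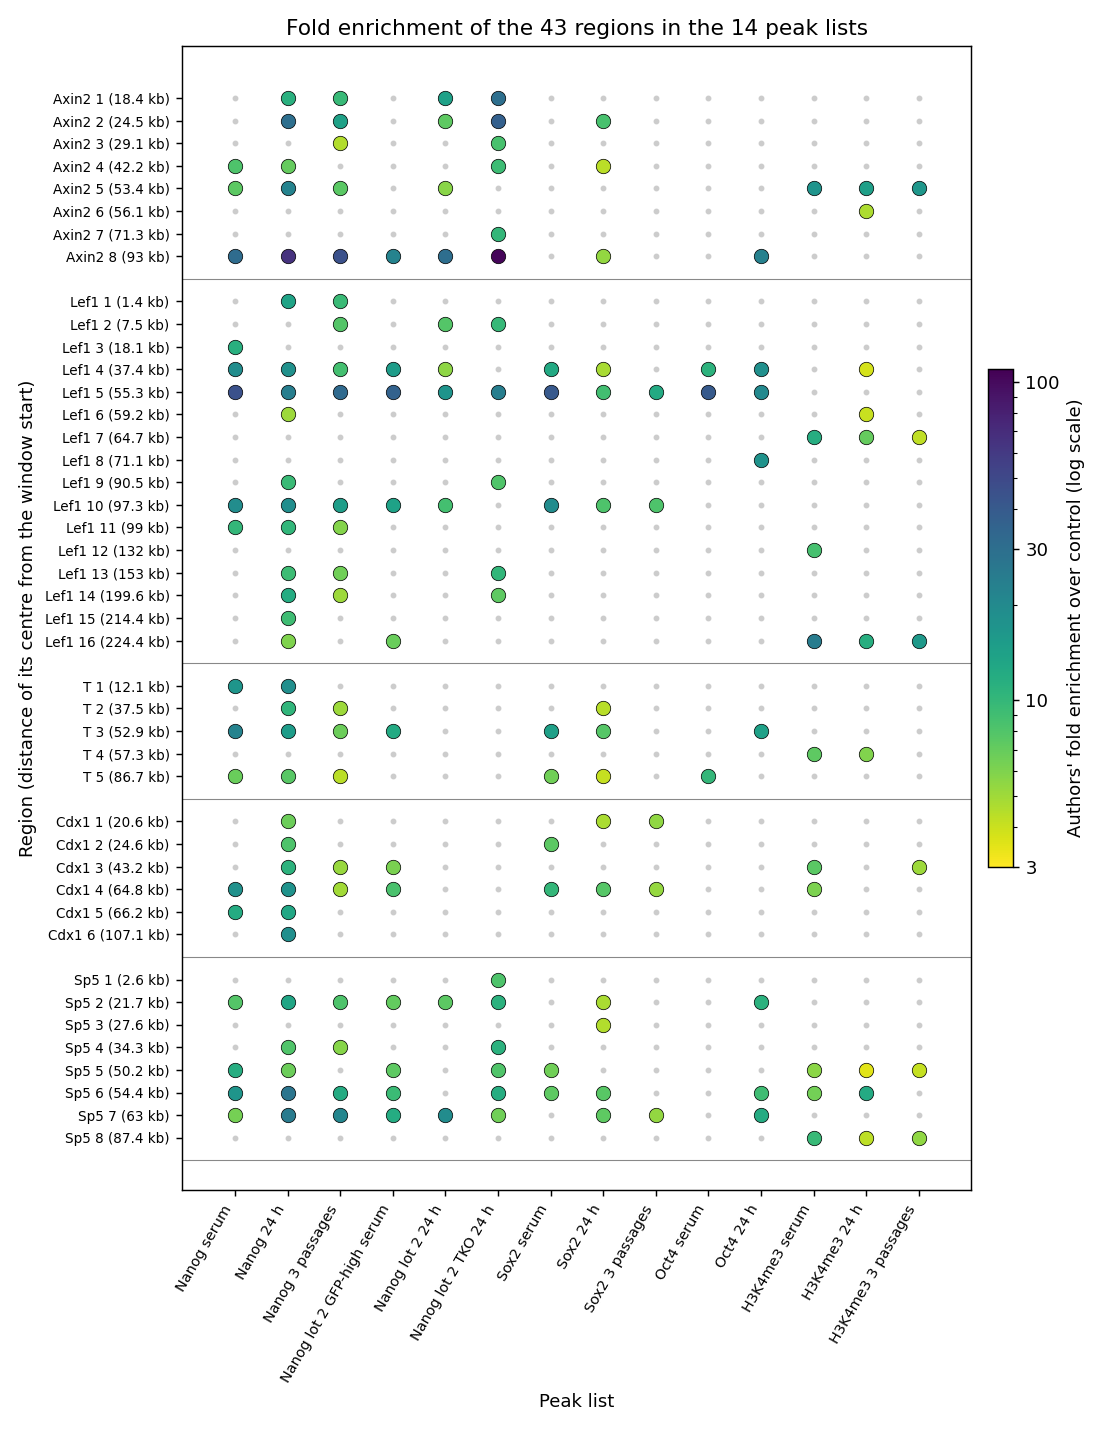
Rows are the 43 regions, with the distance of each centre from the start of its window in kb, and columns are the 14 peak lists. A coloured circle marks a called region, with the authors' fold enrichment of its strongest peak on a log colour scale, and a small grey dot marks no call. Axin2 region 8 carries the darkest circle in each Nanog list of 2i, with a fold of 104 in TKO cells, and Lef1 region 5 is filled in all 11 factor lists.

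Fold enrichment below is the authors' ratio of a peak over the control. Folds were used to describe and rank peaks within a list, and the values of different lists stand side by side. For orientation, the median folds of the Nanog lists ran from 8.90 at 3 passages to 12.1 in serum, those of Sox2 were 9.79 in serum, 5.95 at 24 h and 6.65 at 3 passages, and those of Oct4 were 18.4 in serum and 20.1 at 24 h. The H3K4me3 medians were 12.6 in serum and 8.16 at 24 h. The files give no read counts, so the depth behind each list is unknown.

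At Axin2, the negative feedback gene, one site carried the highest Nanog fold of the 5 windows in each of the 2i lists. Region 8 (chr11:108822524-108823543) was called for Nanog in all 6 lists, with folds of 31.1 in serum, 65.7 at 24 h and 45.0 at 3 passages with lot 1. With lot 2 the folds were 22.0 in GFP-high serum, 30.4 in KH2 at 24 h and 104 in TKO at 24 h. Within their own lists, the 24 h peak of lot 1 exceeded 99.5% of its list by fold, the 3-passage peak 98.4% and the TKO peak 99.4%, while the serum peak exceeded 88.6%. The region thus ranked high in each of these lists. Oct4 and Sox2 were called there only at 24 h, with folds of 22.8 and 5.40. The Sox2 peak had a −log10 q of 7.07, under 17.3, the lowest value of the serum Sox2 list. Its lack of a call in serum cannot be told apart from the limit of that list. The summits of the 8 factor peaks fell within 45 bp of each other, so the 3 factors were called at one site.

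The other leading Axin2 regions lie on the lower-coordinate side of region 8. Region 2 (chr11:108753853-108755080) held no factor peak in any serum list. In 2i its Nanog folds were 30.03 at 24 h and 13.99 at 3 passages with lot 1, and 7.33 in KH2 and 37.0 in TKO cells with lot 2. A Sox2 peak of fold 8.51 was called there at 24 h. Region 1 (chr11:108748085-108748772) showed the same pattern for Nanog, with 11.2 at 24 h and 9.73 at 3 passages, then 14.3 in KH2 and 30.1 in TKO cells with lot 2, and no call in either serum list. Both regions were therefore called for Nanog in all 4 2i lists and in neither serum list. Region 5 (chr11:108781254-108785575) carried the strongest H3K4me3 of the window, with folds of 17.2 in serum, 14.7 at 24 h and 16.4 at 3 passages. A further H3K4me3 peak, region 6, was called at 24 h only, with a fold of 4.65. Region 5 held Nanog at 2 separate sites. At the lower-coordinate site the serum peak (chr11:108781485-108783152) had a fold of 7.41 and the overlapping 24 h peak of lot 1 a fold of 4.57, above 0.64% of its list, and there was no call at 3 passages. At the other site the 24 h peak of lot 1 (chr11:108784139-108784755) had a fold of 22.1, the 3-passage peak 7.52 and the lot 2 peak of KH2 at 24 h 5.70, and no serum list had a peak. The Axin2 window held no Sox2 peak in serum or at 3 passages and no Oct4 peak in serum.

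At Lef1, which encodes a DNA-binding partner of beta-catenin, the main site was called in every list of the 3 factors. Region 5 (chr3:130804710-130805901) was called in all 11 factor lists, the most of any region. Its Nanog folds were 45.3 in serum, 23.9 at 24 h and 32.0 at 3 passages with lot 1, and 36.2 in GFP-high serum, 17.0 in KH2 and 23.9 in TKO cells with lot 2. Sox2 had folds of 40.8, 8.91 and 12.3 in serum, at 24 h and at 3 passages, and Oct4 40.3 in serum and 20.3 at 24 h. In serum this Sox2 peak exceeded 99.3% of its list and the Oct4 peak 92.6%. At 24 h the corresponding shares were 76.3% and 50.5%. The 11 summits spanned 89 bp.

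Region 4 of Lef1 (chr3:130786426-130788441) was called in 10 lists. The folds of its strongest Nanog peak were 19.04, 18.04 and 8.85 in serum, at 24 h and at 3 passages with lot 1, and 15.3 in GFP-high serum and 5.49 in KH2 at 24 h with lot 2. Sox2 was called at 12.5 in serum and 4.83 at 24 h, and Oct4 at 10.9 in serum and 18.2 at 24 h. There was no call in TKO cells. H3K4me3 was called there at 24 h only, with a fold of 3.79. Region 10 (chr3:130847012-130847621) was called for Nanog in every KH2 list, with folds from 8.86 to 19.01, and for Sox2 at 19.4, 8.24 and 8.20 in serum, at 24 h and at 3 passages. It was not called in TKO cells or for Oct4.

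Some of the weaker Lef1 regions held Nanog in 2i and in no serum list. Regions 1, 13 and 14 (chr3:130751115-130751707, chr3:130902728-130903327 and chr3:130949130-130949995) were called with lot 1 at 24 h and 3 passages and not in serum. Their folds were 13.7, 9.26 and 12.1 at 24 h and 9.59, 6.53 and 5.11 at 3 passages. With lot 2 in KH2 cells at 24 h none of them was called. In TKO cells lot 2 called regions 13 and 14, with folds of 10.2 and 7.36, and not region 1. Region 3 (chr3:130767911-130768297) was the 1 region of the 5 windows called for Nanog of lot 1 in serum and not in 2i, with a fold of 11.3, and it was called in no other list. Sox2 was called at regions 4, 5 and 10 of this window, at each of them both in serum and at 24 h. The remaining regions of the window were called in 1 to 5 lists each.

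At T, the mesoderm factor Brachyury, 2 regions carried all 3 factors, but Oct4 was called at each in a different culture. Region 3 (chr17:8622380-8623362) held Nanog at 22.1, 15.3 and 6.73 in serum, at 24 h and at 3 passages, 12.3 in GFP-high serum, Sox2 at 14.4 in serum and 7.81 at 24 h, and Oct4 only at 24 h with 14.3. Region 5 (chr17:8656273-8657120) held Nanog at 6.87, 7.63 and 4.36, Sox2 at 6.53 in serum and 4.13 at 24 h, and Oct4 only in serum with 10.1. The 24 h Oct4 peak of region 3 had a −log10 q of 86.0, under the lowest value of the serum Oct4 list, 86.4. At such values its lack of a call in serum cannot be told apart from the limit of that list. Region 2 (chr17:8607242-8607749) was called for Nanog at 24 h and 3 passages, with 10.4 and 5.11, and not in serum. No Nanog peak of lot 2 was called in the T window in 2i, in KH2 or in TKO cells.

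At Cdx1, a homeobox factor of the posterior embryo, no Oct4 peak was called. Region 4 (chr18:61193838-61195800) held Nanog at 18.02, 17.4 and 4.94 in serum, at 24 h and at 3 passages, and 8.45 in GFP-high serum. Sox2 was called there at 10.1, 7.77 and 5.29 in the 3 cultures, and H3K4me3 only in serum, with 6.11. Region 3 (chr18:61171943-61174456) was called for Nanog at 24 h (10.9), at 3 passages (5.22) and in GFP-high serum (6.17), which differs from standard serum, where it was not called. Sox2 was called in serum only at region 2 (chr18:61154395-61154819), with 7.46, and in 2i only at region 1 (chr18:61150369-61150874), with 4.76 at 24 h and 5.44 at 3 passages. Both peaks of region 1 had a −log10 q under the lowest value of the serum Sox2 list, 17.3. The serum peak of region 2, at 17.8, lay just above that value. Like T, this window held no Nanog peak of lot 2 in 2i, although lot 2 gave 2 peaks in GFP-high serum.

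At Sp5, a zinc finger factor, 3 regions combined Nanog, Sox2 and Oct4 at 24 h and none did in serum. Region 6 (chr2:70312015-70316737) was called in 10 lists, with folds of the strongest Nanog peak of 16.9, 27.0 and 12.2 in serum, at 24 h and at 3 passages with lot 1, and 9.45 in GFP-high serum and 11.6 in TKO cells with lot 2. Sox2 was called there at 7.37 in serum and 7.62 at 24 h, and Oct4 at 24 h with 9.12. Region 7 (chr2:70322558-70323517) held Nanog in all 6 lists, at 6.37, 24.96 and 21.1 with lot 1 and 12.0, 19.3 and 6.55 in GFP-high serum, KH2 and TKO cells with lot 2. Its serum peak of lot 1 exceeded 3.37% of its list, whereas the 24 h peak exceeded 84.6% of its own. The TKO peak, in contrast to Axin2 region 8, lay low in its list, above 5.19% of the peaks. Sox2 was called at region 7 in 2i only, at 7.32 and 5.35 at 24 h and 3 passages, and Oct4 at 24 h with 12.1.

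Region 2 of Sp5 (chr2:70280444-70282970) was also called in all 6 Nanog lists, with folds of the strongest peak from 7.14 in GFP-high serum to 13.3 at 24 h with lot 1, and held Sox2 (4.74) and Oct4 (10.9) at 24 h. The 3 Oct4 peaks of this window at 24 h had −log10 q from 101 to 152, above the lowest value of the serum list. By fold they ranked low, exceeding from 0.93% (region 6) to 8.55% (region 7) of the 24 h Oct4 list. Sox2 of region 5 (chr2:70309690-70310698) was called in serum only, with 6.56. Its −log10 q was 19.7, near the lowest value of that list, 17.3. Nanog of region 4 (chr2:70293970-70294726) was called at 24 h (8.15), at 3 passages (5.78) and in TKO cells (10.99), and in neither serum list.

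**Figure D2:**
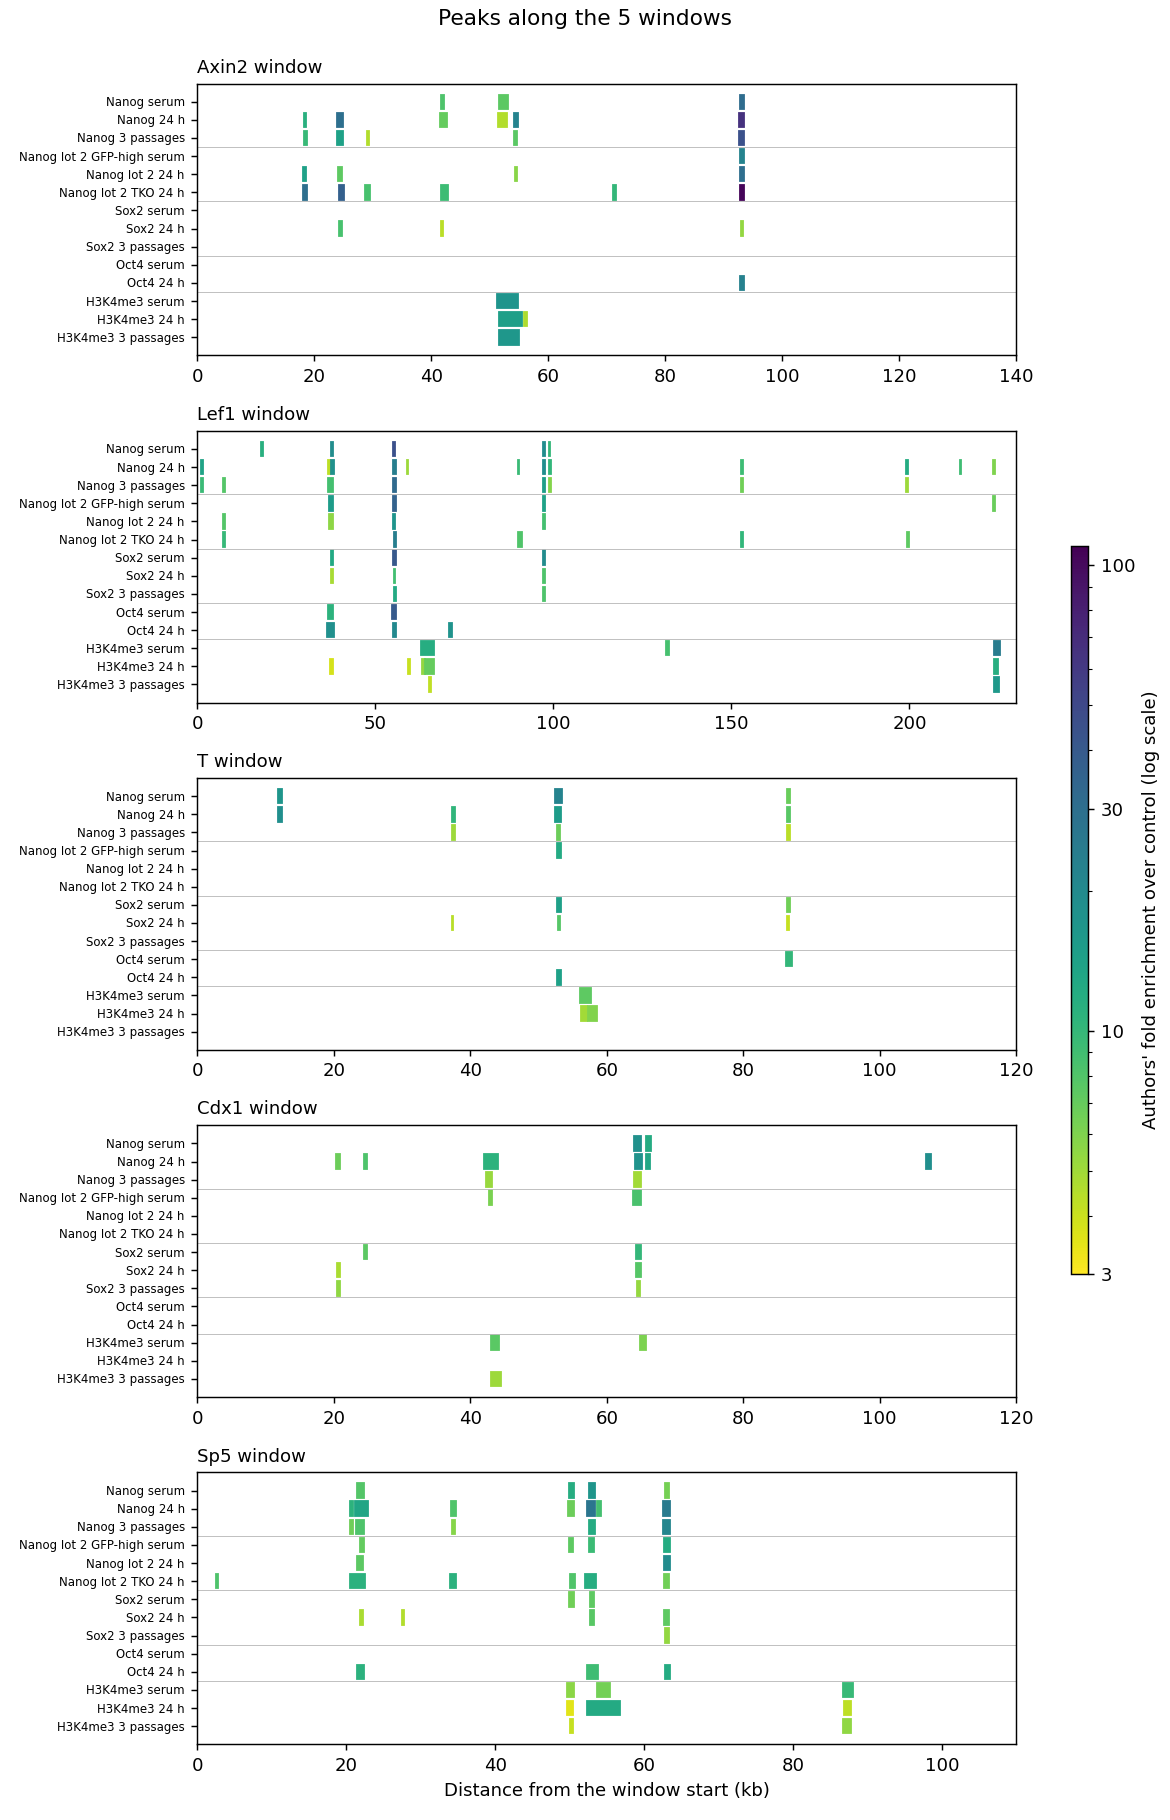
Each panel is a window, with the distance from its start in kb on the x axis and the 14 peak lists on the y axis. Bars span the peaks, each with a thin outline that widens it slightly, and are coloured by the authors' fold enrichment on a log scale. Peaks stack at few positions, and the T and Cdx1 panels are empty for the lot 2 Nanog lists of 24 h in KH2 and TKO cells.

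The next comparison asked whether Nanog occupied more of these loci after the move to 2i. In this and the following comparisons peaks were merged from the lists compared alone, so that a numbered region can hold more than 1 of the regions counted. The lot 1 lists of serum and 24 h gave 36 such regions, of which 19 had a peak at 24 h and none in serum, 1 had the reverse and 16 had both. The 24 h-only share was 52.8% (exact Clopper-Pearson 95% interval 35.5 to 69.6%, counting error only), against 44.5% of the Nanog regions on all chromosomes. The serum-only share was 2.78% (0.0703 to 14.5%) against 8.95%. Both shares over all chromosomes lie within these intervals. By locus, the 24 h-only regions numbered 3 at Axin2, 8 at Lef1, 1 at T, 4 at Cdx1 and 3 at Sp5. Of the 19, 4 are second 24 h peaks inside Axin2 region 5, Lef1 region 4 and Sp5 regions 2 and 6, which also hold a serum peak. Counted by numbered region, 15 of 32 were called only at 24 h, 2 at Axin2, 7 at Lef1, 1 at T, 4 at Cdx1 and 1 at Sp5, with 1 only in serum and 16 in both. None of the regions called only at 24 h had a −log10 q under the lowest value of the serum list. That result was fixed beforehand, because every peak of the 24 h list lies above this value. It therefore cannot show whether the limit of the serum list played a part. When the longer list was shortened to the length of the other by −log10 q, the 2 counts were 13 and 4.

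With lot 1 the windows held 23 Nanog peaks at 3 passages and 35 at 24 h. The 3-passage list is also shorter as a whole, with 33185 peaks against 41755. These lists were each compared with serum and not with each other. Between serum and 3 passages, 11 of 29 regions were shared, 12 were called only at 3 passages (41.4%, against 36.4% over all chromosomes) and 6 only in serum (20.7%, against 16.9%). By numbered region these counts were 12 shared, 10 and 5 of 27. Across both lots, 15 of the 36 numbered regions with Nanog held it in some 2i list of KH2 cells and in neither serum list (41.7%, against 28.6% over all chromosomes), and 1 held it in a serum list and in no 2i list of KH2 cells (2.78%, against 8.98%).

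With lot 2 the serum sample was GFP-high, so these counts differ from those of lot 1 in both the lot and the starting cells. With lot 2, 6 of 16 regions were called only in GFP-high serum (37.5%, against 33.2% over all chromosomes), 4 only at 24 h (interval 7.27 to 52.4%, against 19.2%) and 6 in both. The 4 regions only at 24 h were 3 at Axin2 (regions 1, 2 and 5) and 1 at Lef1 (region 2). In KH2 cells at 24 h, 25 of 35 regions were called only with lot 1 (71.4%, interval 53.7 to 85.4%, against 51.6%), 1 only with lot 2 (2.86%, against 7.61%) and 9 with both. At Axin2 4 regions were called with both lots and 2 with lot 1 alone (region 4 and the lower-coordinate site of region 5), whereas the 4 at T and the 6 at Cdx1 were all called with lot 1 alone. Of the 25, 4 had a −log10 q under 23.2, the lowest value of the lot 2 list, as had 32.7% of such regions over all chromosomes. At equal list length 14 regions were called only with lot 1. Lot and cell preparation cannot be told apart, and lot 2 has 1 sample per list.

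TKO cells were set against KH2 cells at 24 h with lot 2. Of 20 regions, 7 were called in both, 10 only in TKO cells (interval 27.2 to 72.8%, against 51.8% over all chromosomes) and 3 only in KH2 (15.0%, against 15.2%). These shares are near those of the whole lists. The regions only in TKO cells were 3 at Axin2, 3 at Lef1 and 4 at Sp5, and those only in KH2 were Axin2 region 5 and Lef1 regions 4 and 10. The TKO list is longer, with 38518 peaks against 21893, and at equal length 5 regions were called only in TKO cells and 4 only in KH2. The effect of the missing methyltransferases and that of the line cannot be told apart.

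Sox2 showed more regions at 24 h than in serum, but most of the added ones had a low −log10 q. Of 17 Sox2 regions, 8 had a peak at 24 h and none in serum (47.1%, interval 23.0 to 72.2%, against 33.5% over all chromosomes), 2 had the reverse (11.8%, against 22.7%) and 7 had both. Of the 8, 6 had a −log10 q under 17.3, the lowest value of the serum list, as had 92.6% of the 24 h-only Sox2 regions on all chromosomes. The other two, Axin2 region 2 and Sp5 region 7, lay above it. With both lists limited to that value, the 24 h side held 2 regions and the serum side 6, so the order turned. A minimum −log10 q of 10 also turned it, with 2 and 4. For 3 passages, 3 of 11 regions were shared with serum, 6 were called only in serum (54.5%, against 42.6%) and 2 only at 3 passages (18.2%, against 13.8%). The Sox2 libraries are given in the labels as total RNA, although they carry an antibody and a peak list, and the list of 3 passages has 1 sample.

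Oct4 was called at 9 regions. Both lists held 2 of them, Lef1 regions 4 and 5 (22.2%, against 45.8% over all chromosomes). A further 6 were called only at 24 h (66.7%, interval 29.9 to 92.5%, against 43.1%) and 1 only in serum (11.1%, against 11.1%). The 6 were 3 at Sp5 and 1 each at Axin2, Lef1 and T. Of these, 1 (T region 3) fell under the lowest −log10 q of the serum list, as did 1.48% of the 24 h-only Oct4 regions over all chromosomes. At equal list length the 24 h side held 2 regions and the serum side 1. Both Oct4 lists have 1 sample.

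All 3 factors together were called at 3 of the 18 serum regions (16.7%, against 12.9% over all chromosomes), namely Lef1 regions 4 and 5 and T region 5. At 24 h they were called together at 7 of 35 regions, against 13.1% over all chromosomes. The 7 were the same Lef1 regions, Axin2 region 8, T region 3 and Sp5 regions 2, 6 and 7. The Axin2 and Sp5 windows thus held a site of all 3 factors at 24 h and none in serum. At Axin2 region 8 and Sp5 region 2 the 24 h Sox2 peak had a −log10 q under the lowest value of the serum Sox2 list. The 3 lists were also limited to the highest of their lowest −log10 q. That was the value of the Oct4 list, 85.9 at 24 h and 86.4 in serum. Then 0 regions at 24 h and 1 in serum held all 3 factors. No 24 h Sox2 peak of the windows had a −log10 q above 29.9, so the 0 had to follow.

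**Figure D3:**
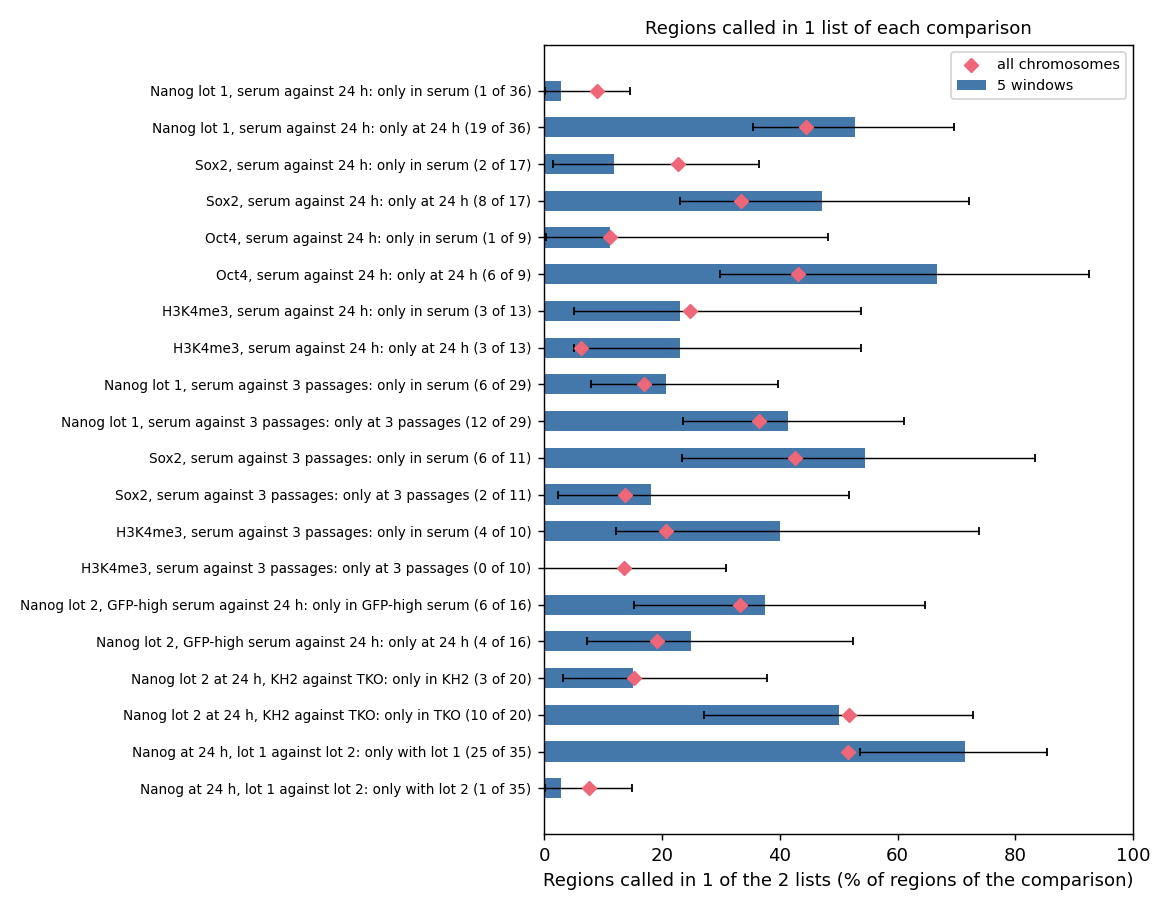
Bars give the percentage of the window regions of each comparison that were called in only one of its 2 lists, with exact 95% intervals for counting error, and diamonds give the same percentage over all chromosomes. The diamonds lie inside the intervals except for regions called only with lot 1 at 24 h, at 71.4% in the windows and 51.6% over all chromosomes.

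H3K4me3 over the 5 windows was spread differently at 24 h and at 3 passages. Of 13 regions of serum or 24 h, 3 had a peak in serum alone (23.1%, against 24.7% over all chromosomes), 3 at 24 h alone (23.1%, interval 5.04 to 53.8%, against 6.27%) and 7 in both. The 3 regions at 24 h alone were all under the lowest −log10 q of the serum list, as were 91.0% of such regions over all chromosomes. Between serum and 3 passages, 6 of 10 were shared, 4 were called only in serum (40.0%, interval 12.2 to 73.8%, against 20.6%) and 0 only at 3 passages (an interval of up to 30.8%, against 13.6%). The 4 were Lef1 region 12, T region 4, Cdx1 region 4 and Sp5 region 6.

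The length under H3K4me3 peaks was 17615 bp in serum, 19302 bp at 24 h and 8277 bp at 3 passages over the 5 windows. Relative to serum this was 110% at 24 h and 47.0% at 3 passages, while over all chromosomes it was 70.0% and 84.4%. At 3 passages the mark thus covered a smaller share of its serum length in the windows than over all chromosomes. The serum peaks of the windows were mostly weak for their list. Of 10 such peaks, 2 exceeded its median fold, and their own median was 8.11 against 12.6. Whether peaks of like strength elsewhere changed in the same way was not tested. The 24 h value rested in part on weak peaks. Limited to the lowest −log10 q of the serum list, it came to 73.4% in the windows and 62.2% over all chromosomes, and the like limit for the pair of serum and 3 passages gave 47.0% and 88.8%. Because peaks were called separately in each list, these lengths also move with how much was called.

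The widest H3K4me3 peak of the 5 windows in any list was that of Sp5 region 6 at 24 h. There the peak spanned 1738 bp in serum with a fold of 6.46, and 4366 bp at 24 h with a fold of 12.3, and none was called at 3 passages. In serum this peak exceeded 19.6% of its list by fold and at 24 h 73.2%, although the median width of all H3K4me3 peaks was 1505 bp in serum and 1121 bp at 24 h. The Nanog, Sox2 and Oct4 peaks of 24 h described above lie in the same region. The strongest Sp5 peak by fold in serum and at 3 passages was region 8 (chr2:70346692-70348036) instead, at 9.76 and 5.46, with 4.32 at 24 h.

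In the other windows the strongest H3K4me3 peak, where one was called, lay in the same region in each culture. Axin2 region 5 covered 3641 bp in serum and 3558 bp at 3 passages, with 4033 bp at 24 h. The strongest peak of the Lef1 window was region 16 (chr3:130973375-130975451) in each culture, with folds of 24.6, 11.5 and 15.8. It lies near the end of the window, and it was not assigned to Lef1 or to the gene that follows Lef1 in GRCm38.p6, Hadh. Region 7 (chr3:130812881-130816520), without any factor peak, held a 3640 bp peak of fold 11.7 in serum, peaks of up to 7.02 at 24 h and a 553 bp peak of fold 4.21 at 3 passages. T region 4 (chr17:8626046-8628632) was called at 7.33 in serum and up to 5.90 at 24 h and was absent from the list of 3 passages. Cdx1 was led by region 3, at 7.58 in serum and 5.10 at 3 passages, and its window held no H3K4me3 peak at 24 h. H3K4me3 at 3 passages was therefore called over nearly the serum length at Axin2, 97.7%, and over 30.5% of it at Lef1, 36.9% at Sp5, 63.7% at Cdx1 and none at T.

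**Figure D4:**
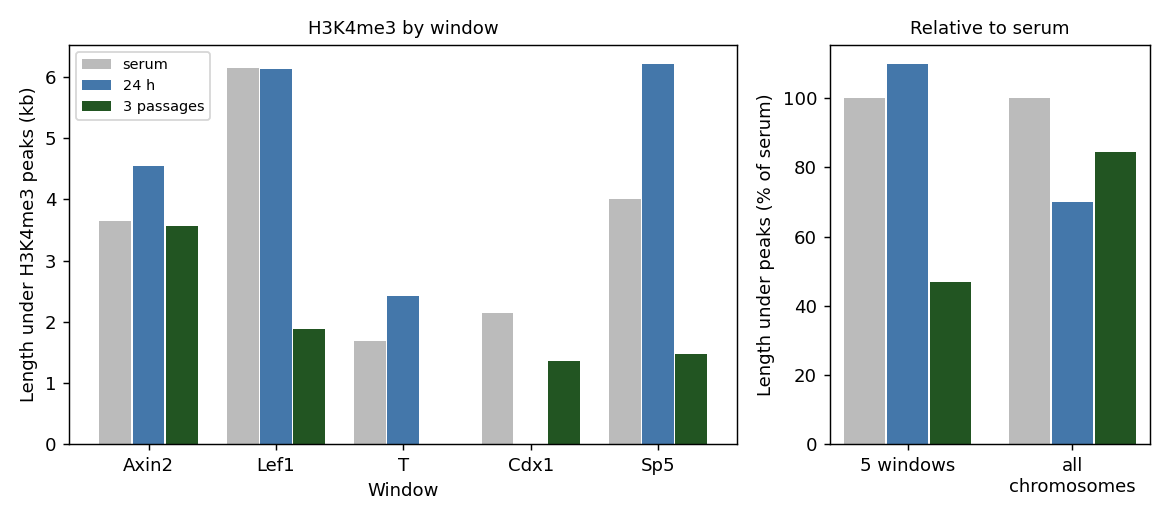
The left panel gives the length under H3K4me3 peaks in kb in each window for serum, 24 h and 3 passages of 2i, and the right panel the same length over the 5 windows and over all chromosomes as a percentage of serum. Each bar is 1 peak list without a replicate value. At 3 passages the bars of all windows except Cdx1 are the shortest of the 3 cultures, that of T being 0, and the 5 windows stand at 47.0% of serum against 84.4% over all chromosomes.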

How the data were processed

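The 14 peak lists were deposited by the authors, 1 for each factor or mark and condition, in the build mm9. Per the submitters' processing notes, BWA 0.5.7, Bowtie 0.12.7 and MACS2 were used, with the aligner of each list not given in the sources used here. Per the files' peak names, replicates were pooled and set against a control, but 6 lists have 1 sample in the labels, so what was pooled there is unknown. The fold enrichment of each peak is the authors' ratio over that control. The deposited −log10 q is the authors' value from peak calling, and its lowest value differs between lists, with the extremes 3.69 (Sox2, 24 h) and 86.4 (Oct4, serum). The deposited summit offset was added to the peak start to place summits.

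Peaks in the windows, and for the background all peaks of the autosomes (1 to 19) and the X and Y chromosomes, were merged where they overlapped by at least 1 bp, over all 14 lists for the numbered regions and separately for each comparison, in Python 3.11.15 with pandas 2.3.3. A region counted as called wherever a list had a peak in it. Peak density over the chromosomes took the last peak end as the length of a chromosome. The merging was tested on simulated sites. Shares carry exact Clopper-Pearson 95% intervals (scipy 1.17.1), which cover counting error only, and neighbouring regions are not replicates. Samples were grouped by their titles, 36 in all, of which 22 stand behind the lists.

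The loci, lists and comparisons were chosen with earlier results of these data known. In each window the text names the 3 regions called in the most lists, the strongest H3K4me3 peak of each culture, and regions called for Nanog of lot 1 or Sox2 in serum and not in 2i, or at both 2i times and not in serum. Regions named beyond this rule were chosen after their values were seen. No annotation of mm9 was at hand, so regions were not assigned to genes, exons or promoters, peak sequences were not read, and other Wnt pathway genes were not counted. Promoter sequences and neighbour names are from RefSeq tables of GRCm38.p6. All 5 genes matched by symbol in the table of neighbours, and the promoters of 4 of them, Axin2, Lef1, T and Sp5, were searched. The alternatives tried were to keep only peaks with a −log10 q of 10 or more, to bring the lists to equal length, to require an overlap of 50% of the shorter peak, to join peaks up to 1000 bp apart and to trim the windows by 20 kb on each side. A further one, chosen after seeing the data, raised every list of a comparison to the highest of the lowest −log10 q among them.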

Additional observations from a re-analysis of the deposited data

How the results depend on the processing

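Between serum and 24 h, Nanog of lot 1 had more regions called only at 24 h than only in serum under every alternative run, and so did Oct4. The minimum −log10 q of 10 could not change either result, as it removed no peak from these lists. Raising both lists to the larger lowest −log10 q removed no peak from the Nanog 24 h list. The Nanog count only in serum, reported as 1, was 4 at equal list length and 0 with windows trimmed by 20 kb. The Oct4 count only at 24 h was 2 at equal length. A minimum −log10 q of 10 gave 4 Sox2 regions only in serum and 2 only at 24 h, and for H3K4me3 6 only in serum, 0 only at 24 h and 4 in both. Raising every list of a comparison to the highest of the lowest −log10 q among them, chosen after seeing the data, gave 6 Sox2 regions only in serum, 2 only at 24 h and 3 in both, and for H3K4me3 6, 0 and 4. Regions with all 3 factors in serum, reported as 3, numbered 1 at equal length and 1 under that common limit. At 24 h, reported as 7, they numbered 4 with the minimum of 10, 3 at equal length and 0 under the common limit. No 24 h Sox2 peak of the windows reached that limit. The equal length and the common limit leave fewer peaks in some of the lists compared. The minimum of 10 removed peaks only from the Sox2 lists of 24 h and 3 passages and the H3K4me3 list of 24 h. Values resting on the other lists alone could not change under it, and they are counted below among those that stayed. The other 65 values of these comparisons stayed within 1.5 times. Among the values of the remaining comparisons and lists, 132 stayed within 1.5 times and 8 were lower by more than that. No paired analysis was possible because each condition has 1 peak list with no value per replicate, and leaving out a replicate was not run for the same reason. Depth per library is unknown, so a missing call does not show that a factor was absent.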
